A study of Mus musculus with 9 samples.

Results

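The genes described here are 10 genes of protein folding and stress signalling in the endoplasmic reticulum (ER), the compartment in which secreted and membrane proteins are folded. They are given by a list of gene names. The list sets 7 folding genes (Hspa5, Hsp90b1, Calr, Canx, Pdia3, Pdia4 and Pdia6) against 3 stress transcription factors (Xbp1, Atf4 and Ddit3). All 10 were found by symbol among the 55536 genes of the count table, and all 10 were among the 14684 genes that passed the filter on low counts (the lowest, Ddit3, had at least 477 counts in every library). Messenger RNA was sequenced in 9 libraries of CD4+ T cells (helper T cells), which were isolated from the spleen of wild-type males 6 to 12 weeks old. All cultures were stimulated for 18 h with anti-CD3/anti-CD28 beads, which engage the T cell receptor complex and its costimulatory receptor, and with 5 ng/mL of recombinant mouse IL-2, a T cell growth factor. During that time 3 cultures received exosomes (small secreted vesicles) of BMDM from wild-type mice (WT_exo) and 3 received those of BMDM from mice deficient in ApoE (EKO_exo), at 2e+09 particles per mL each. The other 3 cultures received PBS (phosphate-buffered saline) and form the control group. BMDM usually stands for bone marrow-derived macrophages, and ApoE is the lipid-carrier apolipoprotein E. No unstimulated culture is among the libraries, so the levels below are those of activated cells. Whether the 3 cultures of a group stem from different mice is not in the labels, and the p-values therefore reflect variation from culture to culture, which may be technical.

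The ER folds proteins with a small set of abundant helpers. Hspa5 (BiP) and Hsp90b1 (GRP94) are chaperones that bind unfolded chains, Calr and Canx (calreticulin and calnexin) hold glycoproteins by their sugars, and the protein disulfide isomerases Pdia3, Pdia4 and Pdia6 form and rearrange disulfide bonds. When unfolded protein builds up, a set of sensors in the ER membrane starts the unfolded protein response. ATF6 is cut to release a transcription factor, IRE1 splices Xbp1 mRNA so that it encodes an active factor, and PERK phosphorylates eIF2 alpha, which slows translation in general while favouring that of ATF4. ATF6 and XBP1 raise the folding genes, and ATF4 raises amino acid and stress genes, among them Ddit3, which encodes CHOP. T cells enlarge their ER when activated, since they make cytokines and surface receptors.

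The libraries held 25792975 counts (EKO_exo replicate 2) to 32971791 counts (WT_exo replicate 3). EKO_exo libraries had 19038 to 19518 genes with a count against 19989 to 20568 in the others, and EKO_exo replicates 3 and 1 stood apart from the rest on the first and the second principal component, which held 18.8% and 15.7% of the variance. Markers of CD4 T cells summed to 2871 to 2970 CPM (counts scaled to a common library size by TMM) in PBS, 2864 to 2941 in WT_exo and 3007 to 3078 in EKO_exo. The 8 B cell markers summed to 523 to 565 CPM in PBS, 512 to 576 in WT_exo and 609 to 616 in EKO_exo. Almost all of that sum was Ighm and Igkc, the mRNA of immunoglobulin chains, while Cd79a, Cd79b, Ms4a1, Pax5 and Cd22 lay between 0.243 and 2.3 CPM in every library. Igkc and Ighm were higher in EKO_exo than in PBS (log2 fold changes 0.28 and 0.16, adjusted p 0.0046 and 0.00795 in edgeR's test over all genes). Without PBS replicate 1 these adjusted p-values were 0.0569 and 0.0619, and without PBS replicate 3 that of Ighm was 0.0545. Igkc was also higher in EKO_exo than in WT_exo (0.43, adjusted p 0.00219, or 0.0538 and 0.06 without WT_exo replicate 1 or 2). The plasma cell list summed to 2167 to 2194 CPM in PBS, 2292 to 2463 in WT_exo and 2200.2 to 2346 in EKO_exo. Nearly all of that was Irf4, which activated T cells also express. Irf4 was higher in WT_exo than in PBS (0.13, adjusted p 0.0025), while Mzb1 did not pass 1.06 CPM and Tnfrsf17 did not pass 0.239 CPM. The list did not rise as a whole. Of its 5 genes past the filter, 3 had estimates below 0 in each comparison with PBS. The median log2 fold changes were -0.27 in WT_exo and -0.22 in EKO_exo, and only Irf4 was called. Macrophage markers summed to 18.4 to 28.9 CPM in PBS, 21.8 to 29.5 in WT_exo and 23.9 to 28.6 in EKO_exo, with C1qa at 0 in all 9 libraries and only Csf1r called (1.38 higher in EKO_exo than in PBS, adjusted p 0.0476, lost without any library except EKO_exo replicate 3 or WT_exo replicate 3, 0.0542 to 0.194). Dendritic cell markers stayed within 9.38 to 12.9 CPM and NK and CD8 markers within 15 to 19.4 CPM in all libraries, and no gene of either list was called. Only 3 of 9 macrophage, 3 of 6 dendritic cell and 4 of 6 NK and CD8 markers passed the filter and could be called. Of the T cell markers Cd3e was called higher in EKO_exo than in PBS (0.12, adjusted p 0.0361), and this was lost without any library except EKO_exo replicate 2 (0.0502 to 0.186). The part of these marker differences in the results below was not tested. In such bulk libraries, fewer cells that express a gene and less of its RNA per cell cannot be told apart.

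What the folding members share in sequence is shown first, because ATF6 and XBP1 reach them through a known promoter element. The ER stress element was searched as CCAAT and CCACG separated by 9 bases of any kind, on both strands, in RefSeq promoter windows of build GRCm38.p6 that run from 250 bases before to 50 bases after the annotated start. An exact match was found in 5 of the 7 folding genes, with 2 copies for Hsp90b1, and in none of the windows of Pdia3, Pdia4, Xbp1, Atf4 and Ddit3. Near matches, with other letters within CCAAT or CCACG, were not searched for. Over the whole genome 37 of 27025 genes with a window held an exact match, which is 0.137%. Because the element is already known from genes of this kind, its presence in them was likely beforehand and is no separate result. The 250 bases before the start are printed below for these 5 genes, 5′ to 3′ along the gene's strand, with the element in capitals (an element on the other strand reads as its reverse complement). Their positions are chr2:34771840-34772089, plus strand for Hspa5, chr10:86705445-86705694, minus strand for Hsp90b1, chr8:84846932-84847181, minus strand for Calr, chr11:50325674-50325923, minus strand for Canx and chr12:17266339-17266588, plus strand for Pdia6.
Hspa5: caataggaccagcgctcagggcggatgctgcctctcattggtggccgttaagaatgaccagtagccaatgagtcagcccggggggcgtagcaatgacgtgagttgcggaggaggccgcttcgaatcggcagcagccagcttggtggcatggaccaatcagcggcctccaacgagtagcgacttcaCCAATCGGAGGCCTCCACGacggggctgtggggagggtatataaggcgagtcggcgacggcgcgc
Hsp90b1: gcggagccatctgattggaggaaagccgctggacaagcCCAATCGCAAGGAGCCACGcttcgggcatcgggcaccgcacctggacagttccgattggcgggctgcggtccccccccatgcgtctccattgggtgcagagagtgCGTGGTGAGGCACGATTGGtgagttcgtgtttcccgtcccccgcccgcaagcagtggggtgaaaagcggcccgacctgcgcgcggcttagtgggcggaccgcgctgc
Calr: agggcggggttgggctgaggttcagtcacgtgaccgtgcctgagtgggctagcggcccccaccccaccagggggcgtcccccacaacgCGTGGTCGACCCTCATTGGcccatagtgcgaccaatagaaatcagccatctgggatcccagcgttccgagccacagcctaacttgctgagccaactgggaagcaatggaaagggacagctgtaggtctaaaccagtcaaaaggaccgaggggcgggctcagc
Canx: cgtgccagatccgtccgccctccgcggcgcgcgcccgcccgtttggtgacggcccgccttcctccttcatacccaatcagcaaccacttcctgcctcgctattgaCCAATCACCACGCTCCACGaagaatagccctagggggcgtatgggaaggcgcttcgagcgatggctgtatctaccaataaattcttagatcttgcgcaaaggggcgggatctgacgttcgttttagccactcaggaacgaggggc
Pdia6: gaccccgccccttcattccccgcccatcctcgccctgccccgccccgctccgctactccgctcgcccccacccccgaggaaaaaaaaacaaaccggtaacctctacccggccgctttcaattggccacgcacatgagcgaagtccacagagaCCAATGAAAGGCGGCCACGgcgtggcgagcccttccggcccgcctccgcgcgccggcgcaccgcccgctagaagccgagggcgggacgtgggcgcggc

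The element begins 65 bases before the start in Hspa5, 212 and 107 bases before it in Hsp90b1, 162 in Calr, 145 in Canx and 98 in Pdia6. It reads along the gene in Hspa5, Canx and Pdia6, against it in Calr, and once each way in Hsp90b1. The windows of the 10 members were also searched, on both strands, for a compact form of the element (ATTGG, 1 base, CCACG), for the UPR element TGACGTGG and for the ATF4 composite site TGATGNAA, where N is any base. None of the 10 windows held any of these letters, which 0.0444%, 0.714% and 4.51% of all genes hold. The parts of the element are common on their own, since CCACG stands in the windows of 35.5% and CCAAT in those of 41.1% of all genes. Any match to the full element includes a match to each part. A match to the UPR element includes CCACG on the other strand. These matches describe letters in the windows and show no binding in these cells.

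Both kinds of exosomes were compared with PBS to ask how CD4+ T cells respond to them, and with each other to ask whether ApoE in the donor mice matters. The mRNA of several ER chaperones was slightly lower with exosomes of either kind, while no difference was detectable for the stress factors. Of the 7 folding genes, 4 fell in WT_exo against PBS (Pdia6, Hsp90b1, Canx and Calr) and 4 fell in EKO_exo against PBS (Hsp90b1, Pdia6, Canx and Hspa5). None of the 3 transcription factors was called in either comparison, by edgeR or by DESeq2, and none had an unadjusted p under 0.05. No member rose. A gene is called here where the Benjamini-Hochberg adjusted p of edgeR's quasi-likelihood test over all 14684 genes was under 0.05. Over all genes tested, 3.14% were lower and 1.83% were higher in WT_exo than in PBS, and 2.87% were lower and 2.21% were higher in EKO_exo than in PBS. Among the 2576 genes that averaged 100 CPM or more, a level that all members but Ddit3 reach, 6.44% were lower in WT_exo and 5.86% in EKO_exo. The changes were small. The median log2 fold change of the 7 folding genes was -0.14 in WT_exo and -0.11 in EKO_exo, beside medians of 0.003 and 3.78e-05 over all genes, and all 7 estimates were below 0 in both comparisons. The EKO_exo count fell to 2 (Hsp90b1 and Pdia6) on omitting EKO_exo replicate 3, on omitting PBS replicate 1, or with EKO_exo replicates 1 and 3 both left out. In WT_exo the count was 4 or 5 whichever library was left out. The comparisons share the 3 PBS libraries, so their values are given side by side and are not independent of each other. The members were chosen with earlier results of these data known. Their counts and medians beside those of all genes are therefore a description and no test.

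**Figure D1:**
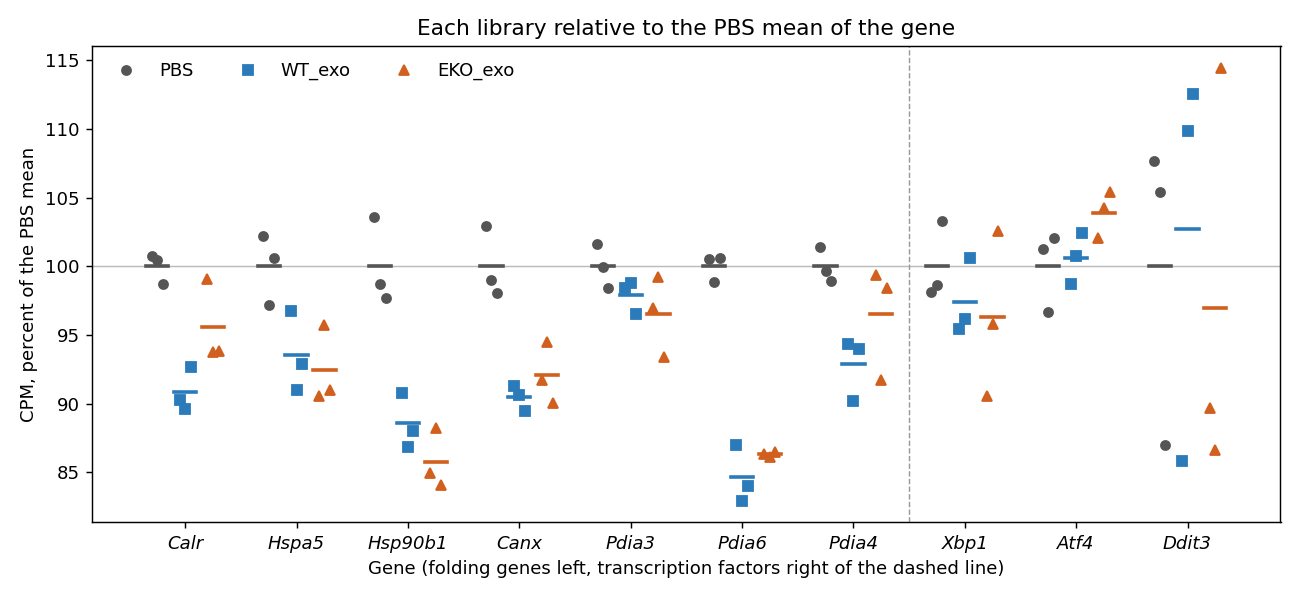
CPM of each member in each of the 9 libraries, as a percentage of the gene's mean in PBS (vertical axis), for the 10 members (horizontal axis), with points for libraries and bars for group means. Points of Hspa5, Hsp90b1, Canx and Pdia6 lie below all PBS points in both exosome groups, while those of Xbp1, Atf4 and Ddit3 overlap between groups.

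Hspa5 (ENSMUSG00000026864, chr2:34771970-34777547, plus strand, GRCm38) encodes BiP, the ER member of the Hsp70 family, which also holds the stress sensors inactive. Its level was 850.0, 808 and 836 CPM in the PBS libraries, 805, 757 and 772 in WT_exo, and 753, 796 and 757 in EKO_exo. All 6 exosome libraries lay below the 3 PBS libraries, and the exosome groups overlapped. The log2 fold change against PBS was -0.11 ± 0.031 (SE) in EKO_exo, with an adjusted p of 0.0276, and -0.096 ± 0.031 in WT_exo, with an adjusted p of 0.0744. The EKO_exo call depended on EKO_exo replicates 1 and 3 and PBS replicates 1 and 3, with adjusted p-values of 0.092, 0.0862, 0.149 and 0.0657 when each of them was omitted, and with both EKO_exo replicates that stand apart left out the estimate was -0.064 (adjusted p 0.566). Hspa5 passed in WT_exo without EKO_exo replicate 1 (0.0425) and in DESeq2 (0.0247).

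Hsp90b1 (ENSMUSG00000020048, chr10:86690209-86705509, minus strand) encodes GRP94, the ER form of Hsp90, which folds integrins and Toll-like receptors among others. Its level was 731, 697 and 689.6 CPM in PBS, 641, 613 and 621 in WT_exo and 599.9, 623 and 594 in EKO_exo. Every exosome library lay below every PBS library. It fell by 0.18 ± 0.031 on the log2 scale in WT_exo (adjusted p 0.000616) and by 0.22 ± 0.031 in EKO_exo (adjusted p 4.87e-05), or by 11.4% and 14.2%. No library left out and no other setting tried ended either call. A pseudogene on the opposite strand, 1810014B01Rik, overlaps Hsp90b1 and shares 273 bases with it at 100% identity, but held only 106 to 215 counts per library against 16076 to 21039 for Hsp90b1.

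Calr (ENSMUSG00000003814, chr8:84841850-84846934, minus strand) encodes calreticulin, the soluble lectin chaperone and a calcium store of the ER lumen. Its level was 1318, 1314 and 1291 CPM in PBS, 1180.3, 1172 and 1212 in WT_exo, and 1295, 1226 and 1227 in EKO_exo. The WT_exo libraries lay below all others, whereas EKO_exo replicate 1 reached into the PBS range. Calr fell by 0.14 ± 0.027 on the log2 scale in WT_exo (adjusted p 0.00137). In EKO_exo the estimate was -0.066 ± 0.027 (adjusted p 0.179), and it passed without EKO_exo replicate 1 (-0.093, adjusted p 0.0431).

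Canx (ENSMUSG00000020368, chr11:50293961-50325673, minus strand) encodes calnexin, the membrane-bound partner of calreticulin. Its level was 710.0, 683 and 677 CPM in PBS, 629.8, 625 and 617 in WT_exo and 633, 652 and 621 in EKO_exo. The exosome libraries all lay below PBS and overlapped with each other. Canx fell by 0.14 ± 0.03 on the log2 scale in WT_exo (adjusted p 0.00276) and by 0.12 ± 0.03 in EKO_exo (adjusted p 0.0163). The second call did not survive omission of EKO_exo replicate 3 (0.0693), of PBS replicate 1 (0.119), or of EKO_exo replicates 1 and 3 together (0.415).

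Pdia6 (ENSMUSG00000020571, chr12:17266545-17284770, plus strand), an isomerase that works with BiP and also acts on the sensors, had the largest decrease of the 10 members in WT_exo. Its level was 260.1, 256 and 260.3 CPM in PBS, 225, 215 and 217 in WT_exo, and 223, 223 and 224 in EKO_exo. The groups with exosomes were apart from PBS by far more than the spread within a group. Pdia6 fell by 0.24 ± 0.037 on the log2 scale in WT_exo (adjusted p 9.33e-05) and by 0.21 ± 0.037 in EKO_exo (adjusted p 0.000476), or 15.3% and 13.7%. Both calls held in every setting tried.

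The other isomerases did not pass. Pdia3 (ENSMUSG00000027248, chr2:121413775-121438687, plus strand), which works on glycoproteins held by calnexin and calreticulin and in the peptide-loading complex, had 586, 577 and 568 CPM in PBS, 568, 569.9 and 557 in WT_exo and 559, 572 and 539 in EKO_exo. These groups overlapped, with estimates of -0.03 (95% interval -0.093 to 0.033, adjusted p 0.737) in WT_exo and -0.051 (-0.114 to 0.012, adjusted p 0.429) in EKO_exo. Pdia4 (ENSMUSG00000025823, chr6:47796141-47813430, minus strand), also known as ERp72, had 214, 211 and 209 CPM in PBS, 199, 191 and 199 in WT_exo, and 210.1, 194 and 208 in EKO_exo. WT_exo lay below PBS without overlap, at -0.11 (-0.19 to -0.023, adjusted p 0.157), and EKO_exo overlapped with PBS, at -0.051 (-0.135 to 0.033, adjusted p 0.591). Pdia3 and Pdia4 are also the folding members whose windows lack an exact match to the full element. Near matches were not searched for, so imperfect copies in these windows were not counted. Hspa5 and Calr hold an exact match, yet Hspa5 did not pass in WT_exo and Calr did not pass in EKO_exo. Whether the element has a part in these values was not tested.

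**Figure D2:**
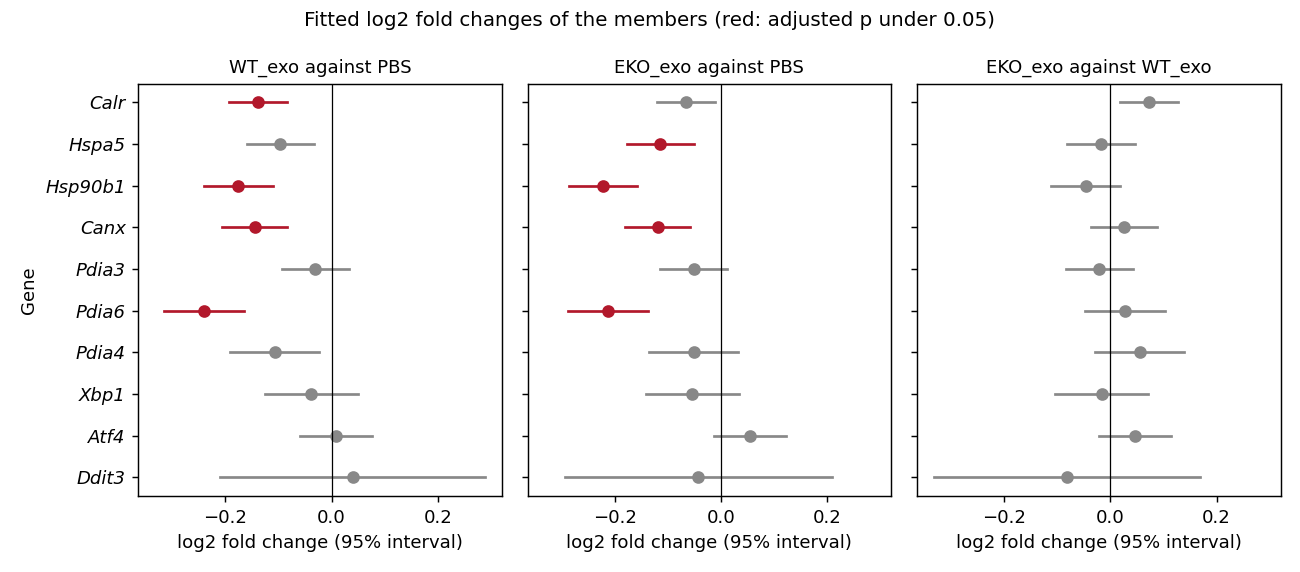
Fitted log2 fold change of each member (horizontal axis) with its 95% interval, for WT_exo against PBS, EKO_exo against PBS and EKO_exo against WT_exo; red marks an adjusted p under 0.05. The red points are 4 folding genes in each comparison with PBS, and none between the exosome groups.

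Xbp1 (ENSMUSG00000020484, chr11:5520659-5525893, plus strand) encodes the factor that IRE1 activates by splicing; counts per gene do not separate the spliced from the unspliced form. Its level was 241, 242 and 253 CPM in PBS, 234, 236 and 247 in WT_exo, and 222, 235 and 252 in EKO_exo. The groups overlapped, and EKO_exo held both the lowest library and one within the PBS range. The log2 fold change was -0.038 (95% interval -0.125 to 0.049, adjusted p 0.771) in WT_exo and -0.054 (-0.141 to 0.033, adjusted p 0.584) in EKO_exo. The EKO_exo interval holds the median of the folding genes in EKO_exo, -0.11. The WT_exo interval does not hold their WT_exo median, -0.14, but holds the Hspa5 estimate, -0.096.

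Atf4 (ENSMUSG00000042406, chr15:80255184-80257541, plus strand) encodes the factor of the eIF2 branch, which is regulated to a large extent in translation, a step that mRNA counts do not show. Its level was 419, 399.9 and 422 CPM in PBS, 408, 417 and 423 in WT_exo and 422, 431 and 436 in EKO_exo. The lowest EKO_exo library lay just under the highest PBS library. The estimates were 0.009 (-0.059 to 0.076, adjusted p 0.951) in WT_exo and 0.055 (-0.012 to 0.123, adjusted p 0.422) in EKO_exo.

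Ddit3 (ENSMUSG00000025408, chr10:127290774-127296288, plus strand) encodes CHOP, the factor linked to cell death in lasting ER stress. It was the lowest member, at 23, 22.5 and 18.6 CPM in PBS, 18.3, 23.4 and 24 in WT_exo and 19.1, 18.5 and 24.4 in EKO_exo, from 477 to 791 counts per library. The ranges of the 3 groups overlapped, each with at least 1 library under 20 CPM and at least 1 above 22 CPM. The estimates were 0.04 (95% interval -0.21 to 0.289, adjusted p 0.937) in WT_exo and -0.042 (-0.293 to 0.209, adjusted p 0.916) in EKO_exo, intervals wide enough to hold a change of the size seen for Hsp90b1. Mars, with 6168 to 8572 counts per library, overlaps Ddit3 on the opposite strand, and the strand setting of the counting is not given in the sources used here, so reads of the overlap could have been assigned to either. The annotation lists a second record named Ddit3 (ENSMUSG00000116429), which has 0 counts in all 9 libraries.

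Folding genes and factors were then set against each other within each library. The mean log2 CPM of the 7 folding genes was 9.15, 9.11 and 9.11 in the PBS libraries, 9.01, 8.97 and 8.99 in WT_exo and 9.01, 9.01 and 8.99 in EKO_exo. That of the 3 factors was 7.05, 7.02 and 6.97 in PBS, 6.91, 7.05 and 7.09 in WT_exo and 6.93, 6.95 and 7.12 in EKO_exo. The folding mean of every exosome library lay below every PBS library, and the factor means overlapped in full. The difference between folding genes and factors, which library scaling does not touch, was 2.11 ± 0.022 (SD) in PBS, 1.97 ± 0.109 in WT_exo and 2.01 ± 0.12 in EKO_exo, and WT_exo replicate 1 (2.1) lay within the PBS range of 2.09 to 2.13. Without Ddit3 the spread in the exosome groups was smaller. With Xbp1 and Atf4 alone as factors the difference in PBS was 0.81 ± 0.046, against 0.69 ± 0.046 in WT_exo and 0.69 ± 0.07 in EKO_exo. In that form its libraries were at 0.839, 0.829 and 0.755 in PBS, 0.74, 0.676 and 0.65 in WT_exo and 0.752, 0.698 and 0.614 in EKO_exo, so that all 6 exosome libraries lay below all 3 PBS libraries. No test was run on these means over members. Summed, the 7 folding genes made up 4582 ± 76.6 CPM in PBS, 4195 ± 53.1 in WT_exo and 4243 ± 63.9 in EKO_exo (n = 3 each), that is 0.458%, 0.42% and 0.424% of the counts. Against PBS the sum fell by 8.44% in WT_exo and by 7.4% in EKO_exo.

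**Figure D3:**
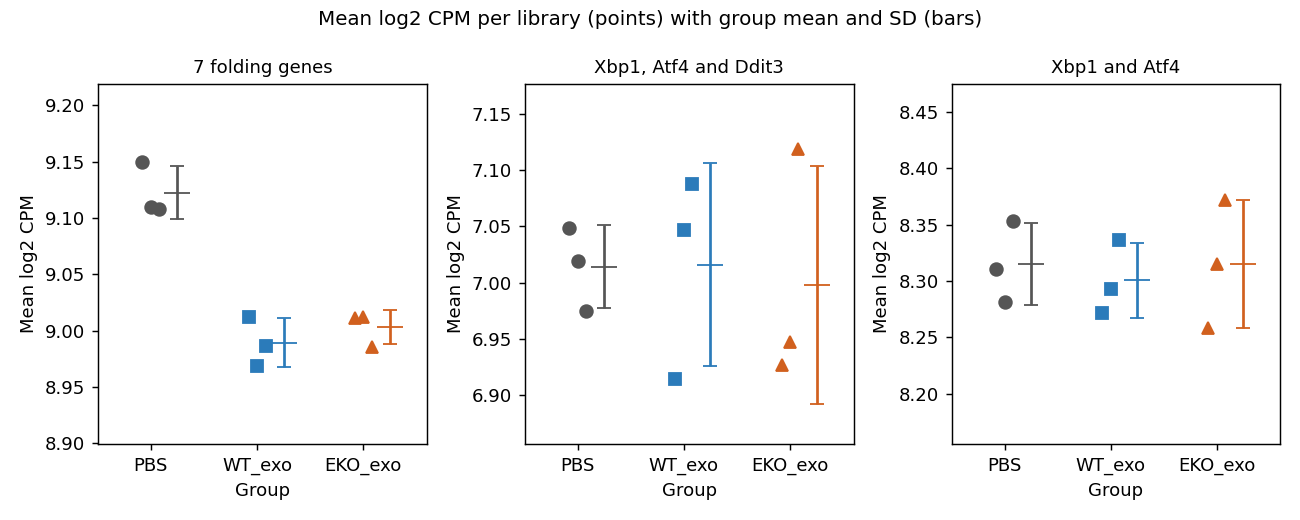
Mean log2 CPM per library (points) for the 7 folding genes, for the 3 transcription factors and for Xbp1 and Atf4 alone, in the 3 groups, with group mean and SD (bars); each panel has its own axis range. The folding means are 9.11 to 9.15 in PBS and 8.97 to 9.01 in the exosome groups, while the factor means overlap between groups.

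Between the exosome groups none of the 10 members was called by edgeR, by DESeq2 or in the other settings tried, and 1 of them, Calr, had an unadjusted p under 0.05 (0.0113). Over all genes 4 were higher (0.0272%) and 1 was lower (0.00681%) in EKO_exo than in WT_exo. The Calr libraries of EKO_exo, given above, all lay above those of WT_exo, with a log2 difference of 0.073 (95% interval 0.018 to 0.127) and an adjusted p of 0.574. For Hspa5 the interval was -0.081 to 0.046, for Hsp90b1 -0.111 to 0.018, for Canx -0.036 to 0.087, for Pdia3 -0.084 to 0.042, for Pdia4 -0.028 to 0.14 and for Pdia6 -0.047 to 0.104. These intervals leave room for differences of up to 0.14 on the log2 scale in the folding genes. They were -0.103 to 0.072 for Xbp1 and -0.021 to 0.114 for Atf4, and -0.332 to 0.168 for Ddit3, which is the least certain. That a member passed against PBS with one kind of exosome and missed with the other, as Calr and Hspa5 did, is therefore not shown to be a difference between the exosomes.

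Levels of different genes were compared per length, as CPM per kb of the union of a gene's exons. In PBS Calr stood highest at 454 ± 4.99 CPM per kb (SD, n = 3), above or level with 99.8% of the genes tested. Hspa5 (197 ± 5.03), Pdia3 (184 ± 2.99), Atf4 (175.4 ± 5.05), Hsp90b1 (175.1 ± 5.55) and Canx (147 ± 3.78) followed. Atf4 and Hsp90b1 did not differ beyond their spread. Below them came Pdia4 (88.1 ± 1.13), Xbp1 (75.5 ± 2.15), Pdia6 (69.1 ± 0.688) and lowest Ddit3 (12.5 ± 1.41), which was above or level with 71% of the genes tested. The order depends on the length used for the genes in the middle. With the longest annotated transcript in place of the exon union, Hsp90b1 (219 CPM per kb) stood above Pdia3 (208) and Atf4 (205), and Pdia6 (119) and Xbp1 (115) above Pdia4 (88.1), with Calr, Hspa5, Canx and Ddit3 in their places. In EKO_exo Atf4 (182.2 ± 3.03) and Hspa5 (181.7 ± 5.6) were level per kb, where in PBS Hspa5 was above Atf4.

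**Figure D4:**
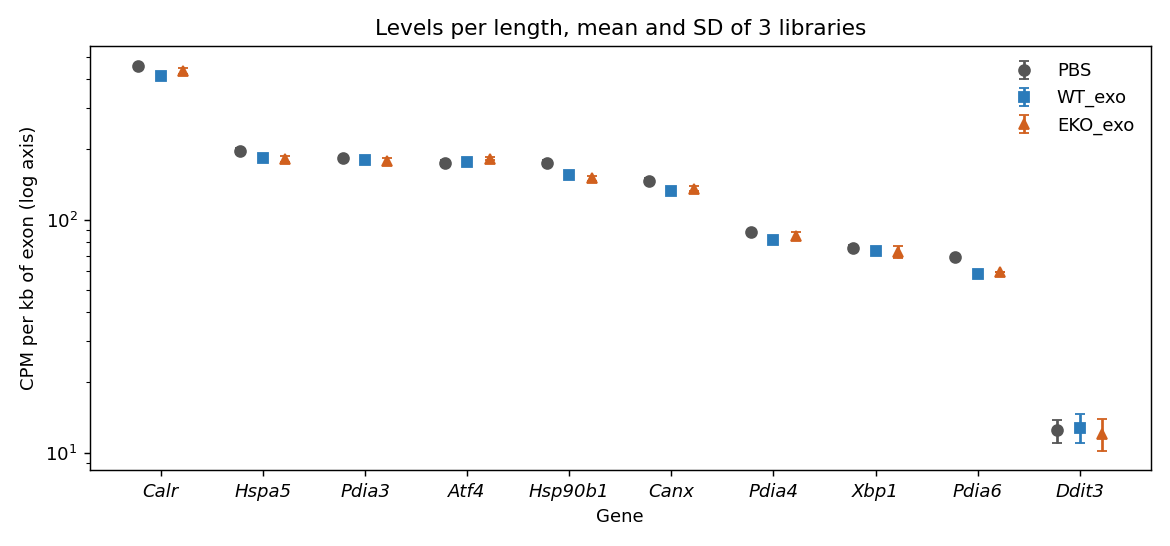
CPM per kb of exon (log axis) of the 10 members in PBS, WT_exo and EKO_exo, as mean and SD of 3 libraries. Calr is highest at 413 to 454 and Ddit3 lowest at 12.1 to 12.8 CPM per kb, and the order is nearly the same in the 3 groups.

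The other genes of the pathway were read from lists of gene names, chosen like the members with earlier results of these data known. Their counts stand beside the shares over all genes tested. These were 3.14% lower and 1.83% higher in WT_exo than in PBS, and 2.87% lower and 2.21% higher in EKO_exo. Among genes of 100 CPM or more they were 6.44% lower and 6.64% higher in WT_exo, and 5.86% lower and 8.39% higher in EKO_exo. Of 10 genes for the stress sensors and their processing, 1 rose and 1 fell in each comparison with PBS, namely Tmbim6 and Atf6. Atf6, the sensor that is cut to become a factor, fell from 55.5 ± 1.06 CPM in PBS to 45.7 ± 0.432 in WT_exo (log2 fold change -0.28 ± 0.069, adjusted p 0.0135) and to 47.2 ± 3.24 in EKO_exo (-0.23 ± 0.069, adjusted p 0.0474). The EKO_exo call was lost without any library except EKO_exo replicate 3 (0.0636 to 0.175), and the WT_exo call without PBS replicate 2 or WT_exo replicate 2 or 3 (0.0586 to 0.0754). Tmbim6 (BAX inhibitor 1), an ER membrane protein known to restrain IRE1, rose from 444 ± 10.8 CPM to 479.9 ± 8.06 in WT_exo (0.11 ± 0.031, adjusted p 0.0371) and to 487 ± 6.88 in EKO_exo (0.13 ± 0.032, adjusted p 0.0118). Its WT_exo call was lost without PBS replicate 1 or 3 or any WT_exo library (0.0799 to 0.188), and its EKO_exo call without PBS replicate 1 or 3 (0.0617 to 0.0658). The mRNA of the other sensors did not pass. Ern1 (IRE1) was at 16.9 ± 1.02 CPM in PBS, 19.1 ± 2.07 in WT_exo (adjusted p 0.498) and 20.4 ± 1.35 in EKO_exo (adjusted p 0.185). Eif2ak3 (PERK) was at 40.2 ± 0.863, 39.1 ± 3.77 and 39.8 ± 2.99 CPM in the same order.

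Of 30 other ER folding and redox genes, 3 fell in each comparison with PBS, none rose in EKO_exo and 1 rose in WT_exo, with median log2 fold changes of -0.065 in EKO_exo and -0.042 in WT_exo. Estimates were below 0 for 24 of the 30 in EKO_exo and for 20 in WT_exo. P4hb, the archetypal protein disulfide isomerase, fell from 456 ± 13.9 CPM in PBS to 399.7 ± 11.7 in WT_exo (-0.19 ± 0.034, adjusted p 0.000573) and to 404 ± 4.63 in EKO_exo (-0.17 ± 0.034, adjusted p 0.00153). Every library of both exosome groups lay below PBS. In EKO_exo the others that fell were Calu, a calcium-binding protein of the secretory pathway (-0.16 ± 0.04, adjusted p 0.0199), and Sdf2l1, a partner of the BiP cochaperones (-0.26 ± 0.072, adjusted p 0.029). Omitting EKO_exo replicate 3 or either of PBS replicates 1 and 2 took Calu over the threshold (0.0728 to 0.087), and for Sdf2l1 omitting EKO_exo replicate 1 or 2 or any PBS library did so (0.0732 to 0.199). In WT_exo they were Manf (-0.18, adjusted p 0.0382) and Creld2 (-0.24, adjusted p 0.0469), both ER stress-inducible proteins and both lost without PBS replicate 1 or 2 or any WT_exo library (Manf 0.0777 to 0.226, and Creld2, also lost without PBS replicate 3, 0.0874 to 0.2). The gene that rose was Tmx3, a membrane-bound isomerase (0.25 ± 0.066, adjusted p 0.0238), lost without PBS replicate 1 or 2 or any WT_exo library (0.0672 to 0.159). Hyou1, the BiP exchange factor, and Dnajb9, a BiP cochaperone and XBP1 target, are 2 stress-inducible genes that did not pass. Hyou1 was at 360.0 ± 5.95, 357 ± 12.2 and 353 ± 14.7 CPM in PBS, WT_exo and EKO_exo. Dnajb9 was at 11.8 ± 0.0339, 10.6 ± 1.34 and 11.4 ± 0.346 CPM.

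Of 20 genes of ER-associated degradation, which removes proteins that fail to fold, 1 rose in EKO_exo and none was called in WT_exo by edgeR or by DESeq2 (1 had an unadjusted p under 0.05). The medians were 0.052 and 0.059, and 15 of the 20 estimates were above 0 in each. Syvn1 (HRD1), the ubiquitin ligase of this pathway, rose from 89.5 ± 4.5 CPM in PBS to 107 ± 7.72 in EKO_exo (0.25 ± 0.057, adjusted p 0.00657), and was at 96 ± 3.21 CPM in WT_exo (adjusted p 0.421). The rise no longer passed when EKO_exo replicate 3 (0.0518) or PBS replicate 1 (0.07) was omitted. Herpud1, which assembles the ligase complex and is itself stress-inducible, was at 98.3 ± 3.6, 103 ± 2.74 and 102 ± 4.11 CPM in PBS, WT_exo and EKO_exo and did not pass.

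Downstream of the factors, 2 of 20 genes known as targets of ATF4 and CHOP fell in each comparison with PBS and none rose. The 2 genes were Asns and Cth in both. Over all genes tested, 3.14% fell in WT_exo and 2.87% in EKO_exo. Estimates in the list were split, with 10 above and 10 below 0 in WT_exo and 9 above and 11 below in EKO_exo. The medians were -0.004 in WT_exo and -0.018 in EKO_exo. DESeq2 called 4 and 5 genes of this list, counted in either direction. Asns, asparagine synthetase, fell from 131 ± 3.72 CPM to 109 ± 1.87 in WT_exo (-0.27 ± 0.047, adjusted p 0.000585) and to 112 ± 4.02 in EKO_exo (-0.23 ± 0.048, adjusted p 0.00379). Cth, an enzyme of cysteine synthesis, fell from 30.6 ± 1.26 CPM to 23.8 ± 1.23 (-0.36 ± 0.092, adjusted p 0.0168) and to 23.7 ± 1.75 (-0.37 ± 0.092, adjusted p 0.0162). Cth lost its WT_exo call without PBS replicate 1 or 3 or WT_exo replicate 2 or 3 (0.0636 to 0.0995) and its EKO_exo call when EKO_exo replicate 2 or either of PBS replicates 1 and 3 was omitted (0.0588 to 0.0731). Both encode amino acid enzymes, and Ppp1r15a (GADD34), the phosphatase subunit that ends the eIF2 block, stood at 59.8 ± 4.18, 60.7 ± 2.1 and 58.7 ± 0.693 CPM in PBS, WT_exo and EKO_exo and was not called. Of 12 eIF2 kinases and regulators only Eif2b1, a subunit of the exchange factor, was called. It fell in EKO_exo by 0.25 ± 0.071 on the log2 scale (adjusted p 0.0386), which no longer passed on omitting EKO_exo replicate 1, any PBS library or WT_exo replicate 1 or 3 (0.0529 to 0.208). None of the 12 was called in WT_exo by edgeR or by DESeq2, where 2 had an unadjusted p under 0.05.

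Of 22 genes of the ER translocon and of N-glycosylation, 1 fell in EKO_exo and none was called in WT_exo by edgeR or by DESeq2 (6 had an unadjusted p under 0.05), with medians of -0.029 and -0.054. The gene was Spcs3, a subunit of signal peptidase (-0.15 ± 0.041, adjusted p 0.0359), which no longer passed on omitting EKO_exo replicate 1, PBS replicate 1 or 2 or any WT_exo library (0.0509 to 0.203). Chaperones outside the ER were also among the genes that fell. Of 20 measured cytosolic and mitochondrial chaperones, of 21 listed, 5 fell in WT_exo and 4 in EKO_exo, and none rose. Among all genes of 100 CPM or more, 6.44% fell in WT_exo and 5.86% in EKO_exo. In each comparison 18 of the 20 estimates were below 0, with medians of -0.054 and -0.077. Hspd1, the mitochondrial Hsp60, fell from 520.4 ± 29.9 CPM in PBS to 457 ± 17.7 in WT_exo (-0.19, adjusted p 0.00275, or 0.0511 without PBS replicate 1) and to 455 ± 17.5 in EKO_exo (-0.19, adjusted p 0.00242). Hsp90ab1, the constitutive cytosolic Hsp90, fell from 6059 ± 123 CPM to 5604 ± 106 in WT_exo (-0.11 ± 0.02, adjusted p 0.000589) and to 5729 ± 120.0 in EKO_exo (-0.081 ± 0.02, adjusted p 0.0146), and the EKO_exo call ended on omitting EKO_exo replicate 2 or either of PBS replicates 1 and 2 (0.0683 to 0.0999). Hspa9, the mitochondrial Hsp70, fell by 0.12 on the log2 scale in WT_exo (adjusted p 0.0211) and by 0.14 in EKO_exo (adjusted p 0.00451). Its EKO_exo call was lost without PBS replicate 1 (0.0517) and its WT_exo call without PBS replicate 1 or WT_exo replicate 2 or 3 (0.0558 to 0.187). Hsp90aa1, the inducible cytosolic Hsp90, fell in EKO_exo (-0.18 ± 0.037, adjusted p 0.00246) and was at -0.12 in WT_exo (adjusted p 0.0753, or 0.041 without PBS replicate 3). The remaining calls in WT_exo were Hspa8, the constitutive cytosolic Hsp70 (-0.12, adjusted p 0.0235, lost without replicate 1 or 2 of PBS or of WT_exo, 0.0548 to 0.228), and Trap1, the mitochondrial Hsp90 (-0.13, adjusted p 0.0469, lost without any PBS or WT_exo library, 0.053 to 0.21). With EKO_exo replicates 1 and 3 both left out, of the genes outside the 10 members named as called in EKO_exo only Cth, Hspd1 and Hsp90ab1 kept an adjusted p under 0.05. Between the exosome groups none of the 133 genes of these lists was called by edgeR or by DESeq2, and 8 had an unadjusted p under 0.05.

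**Figure D5:**
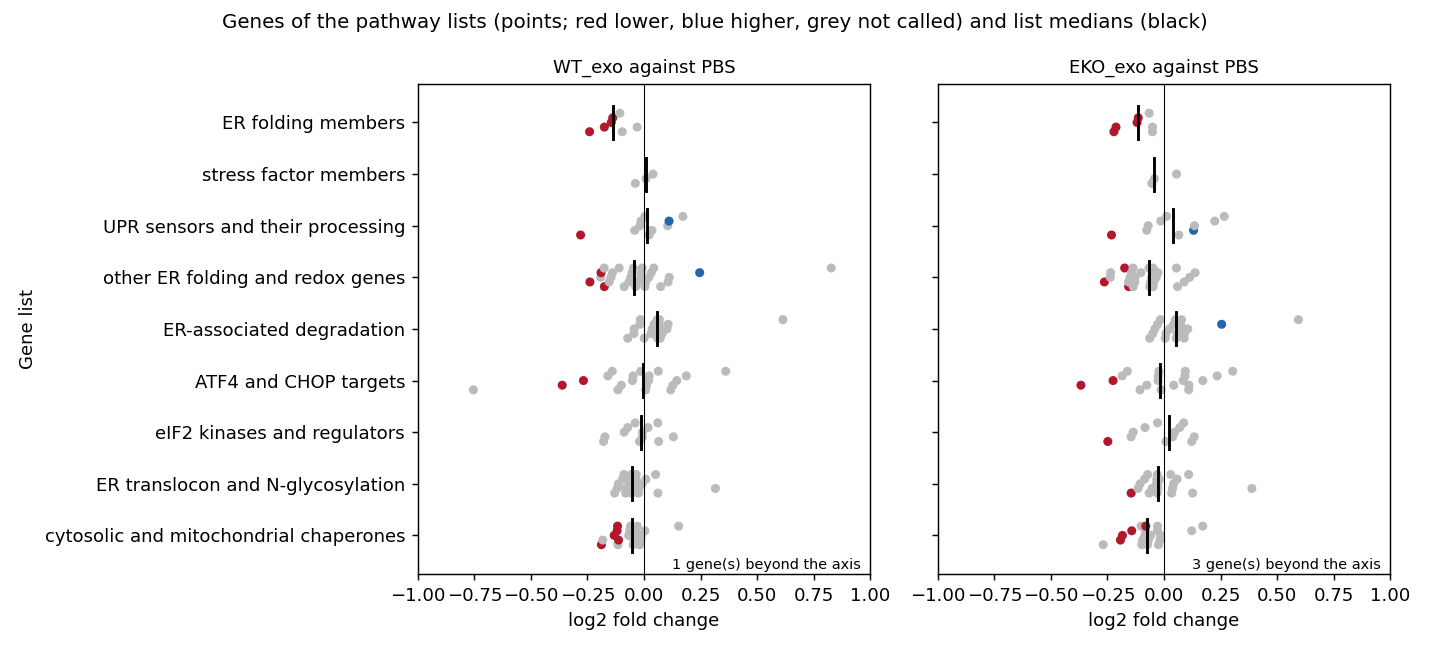
Log2 fold change against PBS (horizontal axis) of each measured gene of the members and of the other pathway lists, for WT_exo and EKO_exo, with black bars at list medians; red marks genes called lower and blue genes called higher. The axis ends at 1 on either side, with 1 gene beyond it in WT_exo and 3 in EKO_exo, none of them called. The medians of the folding members, -0.14 and -0.11, lie further below 0 than those of the other lists. Members and lists were chosen with earlier results of these data known, so this order is a description only.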

How the data were processed

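The authors deposited whole-number read counts per gene for 9 libraries, 3 per group, and these were used unchanged. The aligner was STAR 2.7.5c and the genome GRCm38, per the submitters' processing notes. How reads were counted, with which annotation and strand setting, is not given in the sources used here. Per the labels' protocols, total RNA was extracted with an RNeasy Mini kit and sequenced after Universal Plus mRNA-Seq preparation. Symbols, coordinates and exon lengths came from GENCODE M21 (GRCm38), where all 55536 identifiers matched, and promoter windows from RefSeq (GRCm38.p6). In R 4.3.3, edgeR 4.0.16 kept 14684 genes with filterByExpr (minimum count 10, minimum total 15), which hold at least 99.9% of each library's counts. TMM scaling, 1 model of 3 groups without covariates and quasi-likelihood tests followed, two-sided, with calls at a Benjamini-Hochberg adjusted p under 0.05 over all genes. CPM use the TMM-scaled library sizes, and log2 CPM a prior count of 2. Alternatives were DESeq2 1.42.0, other scalings and filters, 2 groups only, the replicate number as a block, each library left out in turn, and EKO_exo replicates 1 and 3 both left out. The scripts were tested on simulated counts with changes larger than those of the members, so that check does not cover changes as small as theirs.

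Samples were grouped by their titles and treatment labels. Pairs of libraries of 1 group had a chi-square between 5.02 and 9.08 for each degree of freedom over genes, so none was counted as a copy of another.

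The members and the gene lists were chosen with earlier results of these data known. Besides the members, the text names from each pathway list up to 3 called genes with the smallest p in EKO_exo against PBS and up to 2 in each other comparison, and Ern1, Eif2ak3, Atf6, Dnajb9, Herpud1, Ppp1r15a, Asns and Hyou1 whatever their values. Manf, Creld2, Hspa8, Trap1, Cd3e, Ighm, Igkc, Csf1r and Irf4 are named outside this rule, having been picked with their values in view. Protein sequences were not analysed here.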

Additional observations from a re-analysis of the deposited data

How the results depend on the processing

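Counts of called genes moved with the libraries used. For EKO_exo against PBS, 746 genes were called, 375 to 687 with 1 library left out (399 without PBS replicate 1, 375 without PBS replicate 2) and 249 with EKO_exo replicates 1 and 3 both left out, a setting chosen after seeing the data that leaves a lone library assumed to vary like the other groups. Called members in that comparison were 4, 2 to 4 with 1 library left out and 2 with those 2 left out. For WT_exo against PBS, 730 genes were called, and 399 to 870 with 1 library left out (410 without PBS replicate 1, 399 without PBS replicate 2, 441, 430 and 432 without WT_exo replicate 1, 2 and 3), while called members stayed at 4 or 5. For EKO_exo against WT_exo, 5 genes were called, 28 without a filter, 9 at a mean of 5 CPM or more, 37 by DESeq2, 0 to 6 with 1 library left out (1 without EKO_exo replicate 2, WT_exo replicate 1 or WT_exo replicate 3, 0 without WT_exo replicate 2) and 0 with EKO_exo replicates 1 and 3 left out. Without EKO_exo replicate 1 or 3 the WT_exo against PBS count was 870 or 806, above 730. Fewer samples enter the fits with a library left out. The cause of the shifts was not tested for any setting.

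No pairing of libraries by replicate number was detectable, with deviations of same-numbered libraries correlated at -0.02 to 0.024. The labels do not say what the numbers mark. With the replicate block, 614 and 609 genes were called against PBS in EKO_exo and WT_exo and 1 between the exosome groups. The block left 3 called members in EKO_exo (Hspa5 at an adjusted p of 0.051) and 4 in WT_exo.

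Of 509 member results under alternatives, 479 kept direction and side of the threshold, 9 lost a call, 6 gained one and 15 changed sign. For the other named genes these numbers were 729, 137, 7 and 9 of 882. No result that changed sign was called in any setting. With EKO_exo replicates 1 and 3 both left out, Herpud1 in EKO_exo against PBS was at -0.0040, and in EKO_exo against WT_exo Hspa5 was at 0.033, Pdia3 at 0.019 and Pdia4 at -0.018. With 1 library left out, the log2 fold change against PBS in EKO_exo ranged from -0.18 to 0.029 for Ddit3, -0.050 to 0.043 for Eif2ak3, -0.075 to 0.025 for Ppp1r15a and -0.055 to 0.0015 for Hyou1. In WT_exo it ranged from -0.055 to 0.15 for Ddit3, -0.015 to 0.023 for Atf4, -0.095 to 0.036 for Eif2ak3, -0.030 to 0.071 for Ppp1r15a and -0.038 to 0.011 for Hyou1. Between the exosome groups it ranged from -0.044 to 0.0074 for Hspa5, -0.042 to 0.0019 for Pdia3 and -0.064 to 0.027 for Xbp1.

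The folding-minus-factor difference was lower than in PBS in every setting tried (EKO_exo -0.10, and -0.033 without EKO_exo replicate 3; WT_exo -0.13, and -0.098 without WT_exo replicate 3). Lengths from the longest transcript moved every level per kb by more than its SD except that of Pdia4, whose length is the same. Ddit3 had the fewest counts of the members, 477 to 791 per library. The part of depth in its wide intervals was not tested.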

Other observations

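The ER stress element was also found in the promoter windows of 32 genes that are not among the 10 members, of which 29 matched a gene of the table and 13 passed the filter. In EKO_exo against PBS 1 of these 13 rose (Syvn1) and none fell, with a median log2 fold change of -0.059. In WT_exo against PBS 1 fell (Creld2) and none rose, with a median of -0.004. Of the 5 members with the element, 4 fell in each of these comparisons, with medians of -0.12 and -0.14. Over all genes tested, 2.87% were lower and 2.21% higher in EKO_exo, and 3.14% lower and 1.83% higher in WT_exo. These 5 members had group means of 219 to 1307 CPM, while Acacb, Derl3, Gm6566, Xlr3a and Xlr3b had 0.431 to 2.67 CPM. Standard errors of the latter against PBS were 0.357 to 0.673, too wide to call changes as small as the members'. The members were chosen with earlier results of these data known. Among the other ER genes with the element, Dnajc3, a cochaperone of BiP, was at 164 CPM in PBS, 155 in WT_exo (adjusted p 0.365) and 149.6 in EKO_exo (adjusted p 0.0858), and Alg12, a mannosyltransferase of N-glycan assembly, was at 21.5, 20.2 and 20.6 CPM and was not called. Derl3, of ER-associated degradation, was at 0.715, 1.1 and 1.08 CPM. These values describe genes that share a sequence, and no test was run on them as a group.

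Variation between cultures differed among the members. The coefficient of variation of CPM within a group was 11.3% to 15.7% for Ddit3 and lay between 0.202% and 6.23% for the other 9 members. Xbp1 in EKO_exo had the highest of these, with 222, 235 and 252 CPM, while Pdia6 in EKO_exo had the lowest.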
